A study of Mus musculus with 12 samples.

Results

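Mouse CD4 T cells grown as Th17 cells were compared with cells grown as Th1 cells, both wild type (WT) and both sorted for the activating receptor NKG2D. The comparison used 6 of the 12 libraries of the study, 3 labelled Th17 WT and 3 labelled Th1 WT, chosen by their titles. Of 39179 gene IDs in the count tables, 12379 had enough counts to be tested, after 1 ID that filled the shallow libraries had been removed. All cells carried the OT-II T cell receptor, a transgene specific for an ovalbumin peptide, on a C57BL/6 background, and were purified as naive CD4 T cells from spleen and lymph nodes. WT cells were cultured together with NKG2D-deficient OT-II cells (KO) and antigen-presenting cells, with the OVA323-339 peptide and anti-CD28. The Th1 cultures received IL-2, IL-12 and anti-IL-4. The Th17 cultures received IL-1b, IL-6 and IL-23 with anti-IFNg and anti-IL4, and IL-12 was added once they had been triggered for the second time. Both kinds of culture were polarised on day 0 and day 5 and sorted on day 8, WT cells as Thy1.2+ NKG2D+ and KO cells as Thy1.1+. The Th17 group is therefore a Th17 culture exposed late to the Th1 cytokine, limited to the cells that carried NKG2D, and WT cells of either culture without NKG2D at the surface were not analysed here.

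Helper T cells take on different programmes under the cytokines present during their activation. Th1 cells, driven by IL-12 and interferon gamma through STAT4 and the transcription factor T-bet (Tbx21), secrete interferon gamma and activate macrophages. Th17 cells, driven by IL-6, IL-1 and IL-23 through STAT3, secrete IL-17A and IL-17F and recruit neutrophils, and under IL-12 they can begin to make interferon gamma. NKG2D, encoded by Klrk1, is a receptor of natural killer (NK) and CD8 T cells for stress-induced ligands, and some CD4 T cells also acquire it.

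The 3 Th1 WT libraries held 11241671 to 12688637 counts. Th17 WT 1 held 10405299, but Th17 WT 2 and 3 were shallow with 2731909 and 1647232, of which the removed ID took 18.3% and 48.1%. A count of 0 allowed up to 3 counts, which is 0.236 to 3.57 CPM (counts scaled to a common library size) in these 6 libraries, for counting error only. The first principal component of the 6 WT libraries held 63.4% of the variance and set the Th17 libraries apart from the Th1 libraries. All 9 markers of CD4 T cells were present, with a summed level of 11885 to 12751 CPM in Th1 and 11444 to 12809 CPM in Th17, most of it Trac. Of the 9, Cd4 (0.70 ± 0.06, log2 fold change ± SE), Cd3g (0.48 ± 0.06) and Cd3e (0.19 ± 0.08) were higher and Thy1 lower (-0.39 ± 0.12) in Th17. The Thy1 call was lost without Th1 WT 2 or 3, Th17 WT 1 or 2, both shallow libraries or with all libraries thinned to the smallest (adjusted p of 0.0533 to 0.115), and the Cd3e call in 8 of 16 alternatives, among them without Th1 WT 2 or 3, Th17 WT 1 or 2, or both shallow libraries (0.0645 to 0.173). Of the CD8 genes, Cd8a had at most 1 count in any of these libraries, and Cd8b1 was at 4.21, 3.75 and 3.23 CPM in Th1 and 7.43, 6.77 and 1.19 CPM in Th17 and was called higher (log2 fold change 0.83 with SE 0.26, adjusted p = 0.00987). Its groups overlapped, and the call was lost without Th17 WT 1 (adjusted p = 0.46) and with DESeq2 or limma-voom (0.0791 and 0.0919). Dendritic cell and macrophage markers summed to 43.2 to 46.4 CPM in Th1 and 120.1 to 143.6 CPM in Th17, and of the 7 tested (of 13), Cd74, H2-Aa, H2-Ab1, H2-Eb1, Ctss and Flt3 were higher and Cd68 did not pass. Flt3, a receptor of dendritic cells and their precursors, was at 1.25 ± 0.282 CPM in Th1 and 2.47 ± 1.22 CPM in Th17 (mean ± SD, n = 3 per group, log2 fold change 1.101 with SE 0.37, adjusted p = 0.0154), and its call was lost without Th1 WT 3, Th17 WT 1 or Th17 WT 2 (adjusted p of 0.0553 to 0.129) and with DESeq2 (0.0604). The 6 untested ones had at most 4 counts in any library, and Clec9a had 0 in all 6. What part carried-over cells or their RNA had in the differences below was not tested. Klrk1 (ENSMUSG00000030149, chromosome 6, 129610323 to 129623864) stood at 183, 179.7 and 146 CPM in the Th1 libraries and 148, 161 and 152 CPM in the Th17 libraries. Its groups overlapped and the difference did not pass (log2 fold change -0.15 with SE 0.13, adjusted p = 0.383), while the 6 KO libraries lay between 1.82 and 6.4 CPM. The labels do not say which samples came from separate animals or cultures, so the spread behind the p-values may be only technical. An exact permutation of 3 against 3 libraries goes no lower than 0.1, and the p-values below come from a model of all genes.

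Nearly as many genes were higher as were lower in Th17 cells, but the large differences were mostly gains. Of the 12379 genes, 2917 (23.6%) were higher and 2856 (23.1%) lower in Th17 WT than in Th1 WT by edgeR's quasi-likelihood test, with a threshold of 0.05 for the adjusted p. More than 2-fold differences were found for 1140 higher genes (9.21%) and 444 lower genes (3.59%). In all, 46.6% of the genes passed, and 51.5% had CPM ranges that did not overlap between the groups, so that a gene list has to be read against a high background. The median log2 fold change over all genes was 0.000165. Without Th17 WT 1, the deepest Th17 WT library, 2020 genes were higher and 2182 lower.

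**Figure D1:**
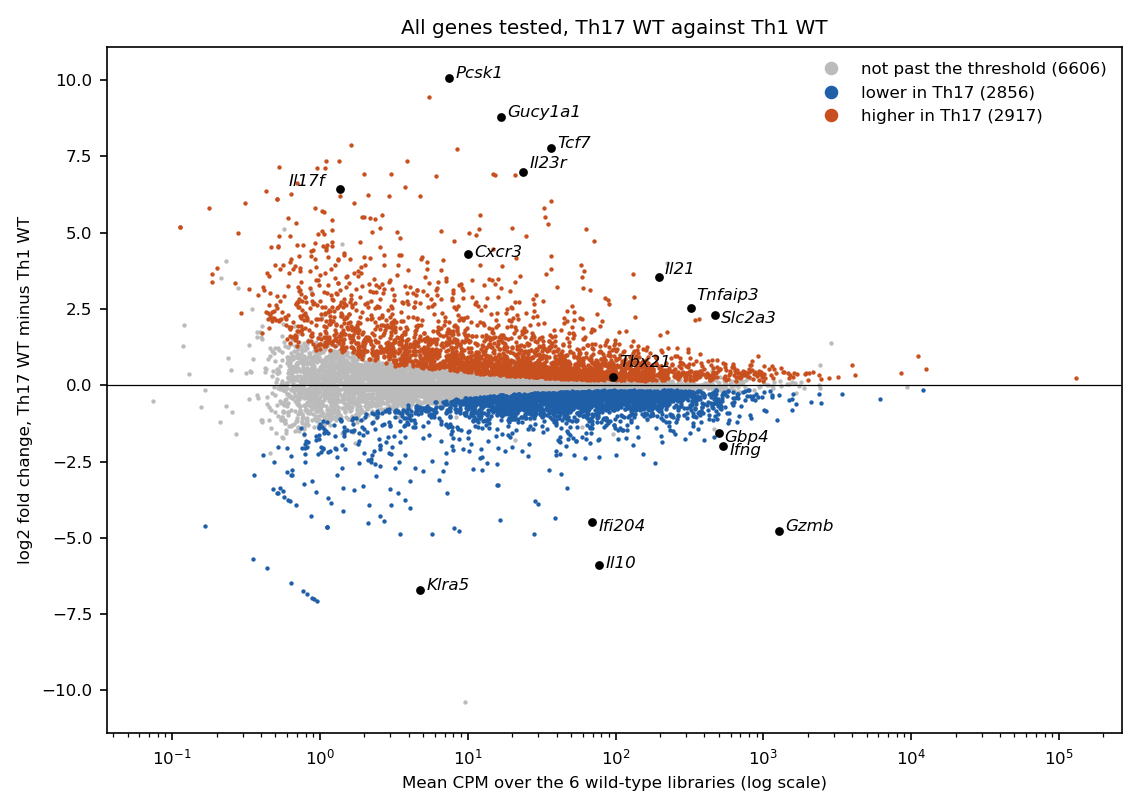
Log2 fold change of Th17 WT against Th1 WT (vertical axis) by the mean CPM of the 6 wild-type libraries (horizontal axis, log scale) for each of the 12379 genes, in orange for 2917 genes higher in Th17, blue for 2856 lower and grey for the others. Large gains such as Tcf7 and Il23r lie far above 0, and Il10 and Gzmb stand out among abundant genes for how far they lie below it. Named genes are in black, and the fitted values of genes with 0 counts in a group, such as Pcsk1, are no measure of size.

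Receptors for the Th17-inducing cytokines were present in the Th17 libraries and nearly absent from Th1. Il23r (ENSMUSG00000049093, chromosome 6, 67422932 to 67491855 on GRCm38), the receptor chain that senses IL-23, was at 0.412, 0.446 and 0.236 CPM in the 3 Th1 libraries and at 49.2, 43.8 and 48.7 CPM in the 3 Th17 libraries. Every Th17 library lay above every Th1 library, a 127-fold difference (log2 fold change 6.99 with SE 0.22, adjusted p = 6.6e-19). In bulk RNA a difference in the number of expressing cells and one in the RNA per cell cannot be told apart, here and below. The receptors for the other Th17 cytokines were higher as well, Il1r1 at 0.365 ± 0.113 CPM in Th1 and 6.49 ± 1.42 CPM in Th17 (mean ± SD, n = 3 per group) and Il6ra at 0.245 ± 0.135 CPM in Th1 and 5.15 ± 2.25 CPM in Th17. Il6st, which encodes gp130, the signalling chain of the IL-6 receptor, was lower, at 25.3 ± 0.498 CPM in Th1 and 12.7 ± 3.28 CPM in Th17 (log2 fold change -1.19 with SE 0.18, adjusted p = 7.16e-06). Pdpn, encoding the glycoprotein podoplanin found on some Th17 cells, was 9.69-fold higher (log2 fold change 3.28 with SE 0.22, adjusted p = 2.45e-12). The aryl hydrocarbon receptor gene Ahr (1.505 ± 0.26, log2 fold change ± SE) and the activation-dependent factors Irf4 (1.17 ± 0.21) and Batf (0.72 ± 0.10) were also higher.

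Of the Th17 cytokines, Il21 was abundant in these cells, and Il17a and Il17f were barely detected. Il21, a cytokine that acts on B cells and on Th17 cells themselves, was at 28.6, 39.1 and 25.1 CPM in Th1 and 354, 399.5 and 329 CPM in Th17. The ranges were far apart, with 11.8-fold more in Th17 (log2 fold change 3.56 with SE 0.18, adjusted p = 1.96e-07). Il17f was at 0, 0 and 0.0788 CPM in Th1 and 4.25, 2.71 and 1.19 CPM in Th17, 1 count in all against 51, a ratio of 137-fold (95% counting interval 23.5 to 5509.97). Il17a had no count in Th1 and 29 counts in Th17, at 2.702, 0.451 and 0 CPM, which is at least 25.9-fold higher if Th1 is taken at the upper limit of 3 counts over its libraries. Most of these counts came from Th17 WT 1, and without that library the Il17a call was lost (adjusted p = 0.0995). Il22 and Ccl20 had too few counts for a test.

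Not all genes of the Th17 programme followed. Of its 23 tested members (of 26), 15 were higher and 5 lower in Th17, with a median log2 fold change of 1.17. Among the lower genes, Maf, which encodes a factor that drives IL-10, was at 170.2, 162 and 212 CPM in Th1 and 83.5, 47.4 and 40.4 CPM in Th17 (log2 fold change -1.45 with SE 0.25, adjusted p = 0.00121). Sgk1, a kinase that stabilises Il23r expression, fell 3.95-fold from 74.1 ± 12.8 CPM in Th1 to 18.5 ± 3.64 CPM in Th17. Hif1a (-0.29 ± 0.07) and Tmem176a (-0.72 ± 0.22) were lower too. The Tmem176a call was lost without both shallow libraries (adjusted p = 0.0648). Levels per kilobase of exon show the balance of the cytokine genes within the Th17 cells, with 172 CPM per kb for Ifng, 68.6 for Il21, 1.34 for Il17f and 0.898 for Il17a.

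**Figure D2:**
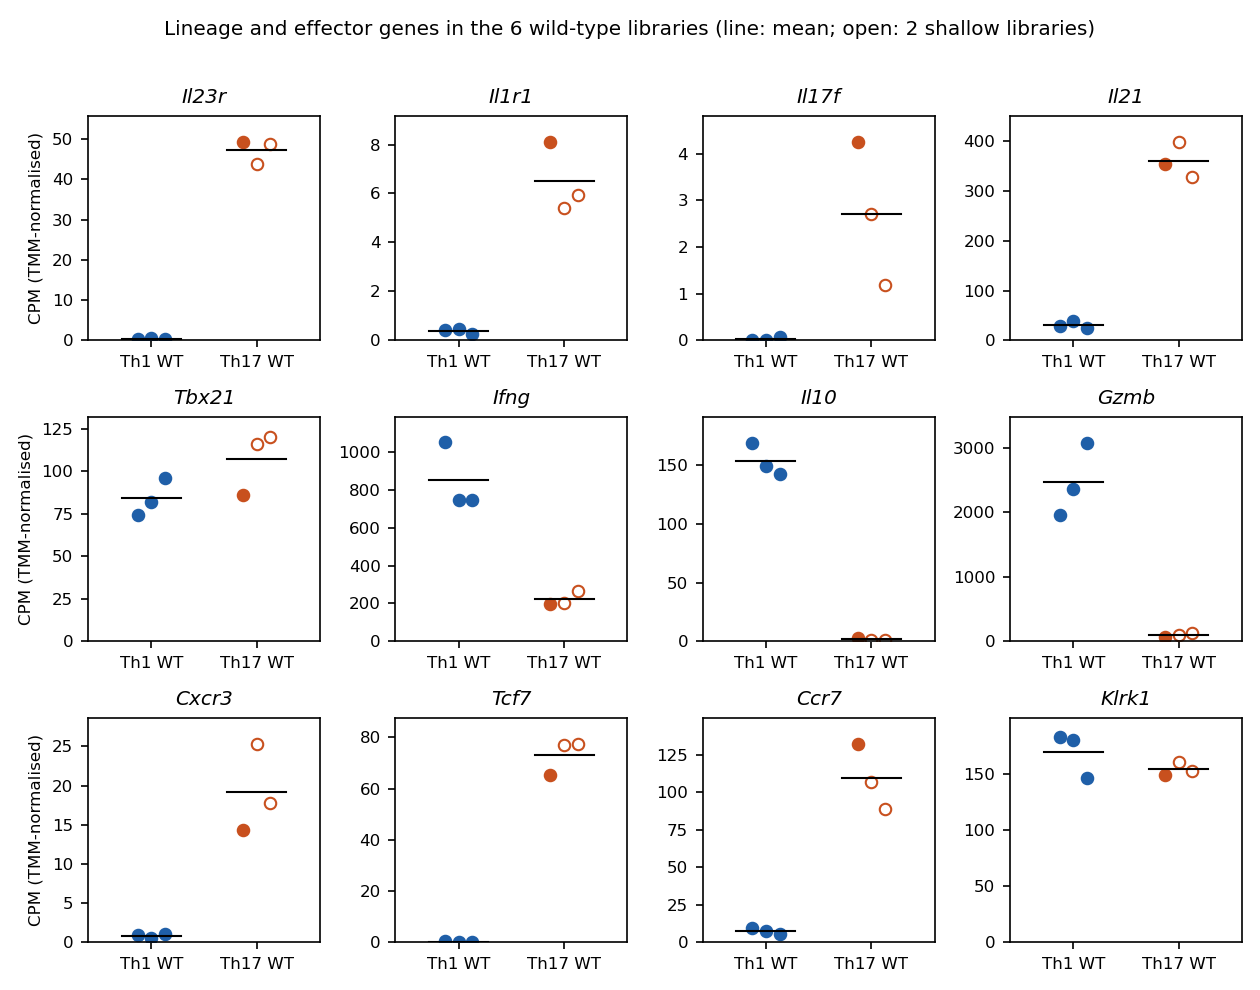
CPM of 12 lineage and effector genes (vertical axes, linear and starting at 0) in the 3 Th1 WT libraries (blue) and the 3 Th17 WT libraries (orange, open for the 2 shallow ones), with the mean as a line. Il23r, Il1r1, Il21, Cxcr3, Tcf7 and Ccr7 are higher in each Th17 library than in any Th1 library, Ifng, Il10 and Gzmb are lower, and Tbx21 and Klrk1 overlap between the groups.

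The Th1 programme differed by parts, with its effector cytokines lower in Th17 cells and its central transcription factor in overlapping ranges. Tbx21 (ENSMUSG00000001444, chromosome 11, 97098071 to 97115331) was at 74.5, 82.1 and 95.9 CPM in Th1 and 85.98, 116 and 120.1 CPM in Th17. The groups overlapped and the difference did not pass (log2 fold change 0.26 with SE 0.21, adjusted p = 0.346). With every library thinned to the depth of the smallest it passed, at a log2 fold change of 0.41 (adjusted p = 0.045). Ifng (ENSMUSG00000055170, chromosome 10, 118441046 to 118445892) was at 1056, 749 and 747 CPM in Th1 and 198, 203 and 266 CPM in Th17. Every Th17 library lay below every Th1 library, and the fall was 3.95-fold (log2 fold change -1.98 with SE 0.22, adjusted p = 9.09e-05). The other macrophage-activating cytokines Tnf (-1.796 ± 0.24) and Lta, encoding lymphotoxin alpha (-2.37 ± 0.28), fell too.

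The receptors of the Th1 pathway moved in opposite directions. For interferon gamma, the ligand-binding chain gene Ifngr1 was at 826, 849.7 and 762 CPM in Th1 and 385, 367 and 348 CPM in Th17 (log2 fold change -1.14 with SE 0.07, adjusted p = 6.87e-13). The signalling chain gene Ifngr2 was nearly absent from Th1, at 0.412, 0.179 and 0 CPM, and was at 6.85, 7.67 and 4.76 CPM in Th17 (log2 fold change 5.03 with SE 0.44, adjusted p = 6.31e-10). For IL-12, Il12rb1, a chain that the IL-23 receptor also uses, was lower (-0.96 ± 0.08), and Il12rb2, the chain specific to IL-12, was higher at 502 ± 17.9 CPM in Th1 and 755 ± 44.6 CPM in Th17 (log2 fold change 0.58 with SE 0.06, adjusted p = 2.11e-08). Both chains of the IL-18 receptor were lower, Il18r1 (-0.35 ± 0.09) and Il18rap (-1.12 ± 0.11). The chemokine receptor gene Cxcr3, usually counted as a Th1 marker, was at 0.99, 0.625 and 1.02 CPM in Th1 and 14.3, 25.3 and 17.8 CPM in Th17. It was 19.6-fold higher in Th17 (log2 fold change 4.29 with SE 0.26, adjusted p = 6.35e-13). The chemokine receptor gene Cxcr6 (-0.74 ± 0.22) and the inhibitory receptor gene Havcr2 (-1.82 ± 0.34) were lower, whereas Bhlhe40, a factor that restrains Il10, rose from 619.6 to 1217 CPM (0.97 ± 0.06). Without Th17 WT 1 both the Cxcr6 and the Havcr2 call were lost (adjusted p of 0.153 and 0.0573), and the Cxcr6 call also without Th1 WT 2 or 3 (0.056 and 0.0701). Of the 25 tested members of this list (of 26, Eomes not tested), 14 were lower and 8 higher, with a median of -0.35. Without Th17 WT 1 it was 10 lower and 10 higher.

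Il10 (ENSMUSG00000016529, chromosome 1, 131019845 to 131024974), which encodes an anti-inflammatory cytokine, showed the largest fall of the 23 cytokine genes tested. It was at 169, 149.7 and 142 CPM in the Th1 libraries and 2.99, 1.35 and 1.19 CPM in the Th17 libraries. The ranges were far apart and the fall was 59.1-fold (log2 fold change -5.89 with SE 0.16, adjusted p = 1.93e-19). Csf1, the macrophage growth factor gene, fell from 451 ± 40.2 CPM in Th1 to 139 ± 19.3 CPM in Th17 (log2 fold change -1.75 with SE 0.20, adjusted p = 0.000113). Gains among cytokine genes included Tnfsf8, which encodes the CD30 ligand, at 4.65 ± 1.26 CPM in Th1 and 68.7 ± 12.1 CPM in Th17 (log2 fold change 3.82 with SE 0.16, adjusted p = 5.74e-14), and Lif, of the IL-6 family, at 21.8 ± 10.9 CPM in Th1 and 92.7 ± 24.7 CPM in Th17 (log2 fold change 2.19 with SE 0.42, adjusted p = 0.00256). The Lif call was lost without Th17 WT 1 (adjusted p = 0.0565). Il3 had no count in Th1 and 26 in Th17, at least 23.3-fold higher. Of the 23 cytokine genes tested (of 30), 10 were higher and 7 lower, with a median of -0.14. Among the 5 chemokine genes tested (of 13), 3 were higher. Ccl22, a ligand of CCR4, had 0 counts in Th1 and 31 in Th17, at least 27.7-fold higher, and Ccl5 was 3.01-fold higher at 1.78 ± 1.06 CPM in Th1 and 5.28 ± 0.56 CPM in Th17. The third, Cxcl10, lost its call without Th1 WT 3, without Th17 WT 1 or 2 and without the 2 shallow libraries (adjusted p of 0.0501 to 0.256).

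Genes of other helper lineages were mostly at low levels. Of 7 tested Th2 genes (of 9), 4 were higher and 2 lower, with a median of 1.33. Gata3, the Th2 lineage factor, was at 6.48 ± 0.34 CPM in Th1 and 16.5 ± 0.671 CPM in Th17 (log2 fold change 1.33 with SE 0.16, adjusted p = 1.61e-07), and Il13 had 0 counts in Th1 and 13 in Th17, at least 11.6-fold higher. Ptgdr2, a prostaglandin receptor of Th2 cells, fell from 5.75 ± 1.64 CPM in Th1 to 0.279 ± 0.244 CPM in Th17. Il4 and Il5 were not tested. Of the follicular helper genes 5 of 10 were tested and 3 were higher, namely Bcl6, the repressor that defines that lineage (3.08 ± 0.272 CPM in Th1 and 20.5 ± 4.91 CPM in Th17), Pdcd1 (0.91 ± 0.19) and Tox (3.67 ± 0.76). Foxp3, the regulatory T cell factor, had too few counts for a test. Of the other regulatory genes 10 were tested, 6 higher and 2 lower, with Ctla4 at 197 ± 4.196 CPM in Th1 and 421 ± 20.8 CPM in Th17 and Nrp1 at 7.81 ± 1.45 CPM in Th1 and 41.9 ± 5.48 CPM in Th17. The 2 lower ones were Il10 and Tnfrsf18, of which 1 remained without Th1 WT 1, Th17 WT 2, Th17 WT 3 or both shallow libraries.

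Cytotoxic genes did not move as 1 group. Gzmb (ENSMUSG00000015437, chromosome 14, 56258838 to 56262260), encoding granzyme B, a protease that kills target cells, was at 1952, 2364 and 3073 CPM in Th1 and 71.4, 94.4 and 134 CPM in Th17. Every Th17 library lay far below the Th1 range, a fall of 27.2-fold (log2 fold change -4.77 with SE 0.30, adjusted p = 2.16e-06). Gzma, encoding another granzyme, fell 5.79-fold from 314 ± 73.98 CPM in Th1 to 55.4 ± 4.81 CPM in Th17. Fasl, the death ligand, was at 70.4, 63.7 and 65.3 CPM in Th1 and 22.6, 12.6 and 10.7 CPM in Th17 (log2 fold change -1.79 with SE 0.17, adjusted p = 4.71e-07). Perforin, which granzymes need to enter a target cell, did not pass, with Prf1 at 19.95 ± 4.56 CPM in Th1 and 29.5 ± 7.69 CPM in Th17 (log2 fold change 0.35 with SE 0.23, adjusted p = 0.235). Nkg7, a granule protein gene, also did not pass (log2 fold change -0.35 with SE 0.19, adjusted p = 0.161). Of the 15 members tested (of 18), 5 were lower and 1 higher, with a median of -0.17, and without Th17 WT 1 it was 3 lower and 2 higher. In the main fit 40% of the members passed, against 46.6% of all genes tested. The 1 higher member, Srgn, did not pass without Th1 WT 1 or 3, or without Th17 WT 1 or 3.

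Most tested NK cell receptor genes were lower in the Th17 cells. Klrk1 did not pass, but the cells of both groups had been sorted for its product NKG2D. Klrc1, encoding the inhibitory receptor NKG2A, was at 449, 461 and 488 CPM in Th1 and 193, 202 and 197 CPM in Th17 (log2 fold change -1.24 with SE 0.10, adjusted p = 9.19e-08). Klrd1, encoding CD94, the partner chain of NKG2A, differed less, at 118, 135 and 120.3 CPM in Th1 and 96.4, 112 and 97.5 CPM in Th17 (log2 fold change -0.29 with SE 0.08, adjusted p = 0.00336). The Klrd1 call was lost without Th17 WT 1 (adjusted p = 0.0728). Klrc2, the activating relative NKG2C, fell 2.12-fold from 115 ± 11.4 CPM in Th1 to 56.8 ± 8.26 CPM in Th17. Among the Ly49 genes, Klra3 fell from 12.5 ± 2.59 CPM in Th1 to 3.43 ± 0.92 CPM in Th17, and Klra5 had 337 counts in Th1 and 1 in Th17, a ratio of 126-fold (95% counting interval 22.4 to 4975). Hcst, the adaptor through which NKG2D signals, was at 16.2, 16.8 and 15.8 CPM in Th1 and 13.03, 13.1 and 13.1 CPM in Th17, and the difference did not pass (log2 fold change -0.32 with SE 0.13, adjusted p = 0.0552). In all, 8 of the 12 tested members (of 19) were lower and none higher, with a median of -0.70. Without Th17 WT 1 it was 5 lower. Klrc and Klra genes have near-identical copies, so their reads may have been split or dropped in counting.

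Most tested interferon-induced genes were lower in the Th17 cells in the main fit. The Th17 cultures received anti-IFNg and also other cytokines than the Th1 cultures, and these cannot be told apart here. Gbp4 (ENSMUSG00000079363, chromosome 5, 105115767 to 105139586), a guanylate-binding GTPase of host defence, was at 759, 742 and 732 CPM in Th1 and 274, 223 and 258 CPM in Th17. The groups were far apart, with a 2.94-fold fall (log2 fold change -1.56 with SE 0.08, adjusted p = 2.45e-12). Its relatives Gbp7 (-1.14 ± 0.06), Gbp8 (-1.26 ± 0.09) and Gbp3 (-0.79 ± 0.08) fell too, but Gbp2, at 916, 1029 and 899.7 CPM in Th1 and 884, 959.8 and 914 CPM in Th17, did not pass (log2 fold change -0.05 with SE 0.07, adjusted p = 0.622). The immunity-related GTPases Igtp (-0.93 ± 0.06), Iigp1 (-1.63 ± 0.13) and Irgm2 (-0.69 ± 0.17) were lower. Irgm2 did not pass without Th17 WT 1 (adjusted p = 0.0692) or both shallow libraries (0.065). The DNA-sensor family gene Ifi204 was at 132 ± 16.6 CPM in Th1 and 7.45 ± 3.85 CPM in Th17 (log2 fold change -4.49 with SE 0.23, adjusted p = 2.1e-08) and Ifi203 at 83.9 ± 3.63 CPM in Th1 and 20.4 ± 7.51 CPM in Th17. Genes of antigen processing fell less, with Psmb8, a subunit of the immunoproteasome, at -0.64 ± 0.07 and Tap1, of the peptide transporter, at -0.38 ± 0.07. Of the 37 members tested (of 39), 26 were lower and 2 higher, with a median of -0.74. Without Th17 WT 1 it was 18 lower and 2 higher. The 9 that did not pass in the main fit included Isg15, Mx1, Rsad2, Irf7, Irf9 and Stat2 beside Gbp2. Of the 2 higher ones, Bst2, encoding the antiviral protein tetherin, was at 0.52 ± 0.09. Gbp genes are close copies of each other, so their values are uncertain.

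To set these genes beside their promoters, which 29 of the 39 members had in the RefSeq table, the 150 bases before the RefSeq start site are shown for 3 genes that fell and for Gbp2, which did not pass, 5′ to 3′ on the plus strand of GRCm38.p6. Capitals mark matches on either strand to the interferon response element (GAAA, 2 bases of any kind, then GAAA), bound by interferon regulatory factors, and to TTCNNNGAA, the element bound by STAT proteins.
Gbp7: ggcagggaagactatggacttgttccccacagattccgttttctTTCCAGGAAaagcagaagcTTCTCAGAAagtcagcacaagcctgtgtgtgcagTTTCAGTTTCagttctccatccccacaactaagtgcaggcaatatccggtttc
Igtp: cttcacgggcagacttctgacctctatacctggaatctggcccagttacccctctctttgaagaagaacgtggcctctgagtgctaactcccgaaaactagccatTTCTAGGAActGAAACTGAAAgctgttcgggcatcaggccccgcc
Irgm2: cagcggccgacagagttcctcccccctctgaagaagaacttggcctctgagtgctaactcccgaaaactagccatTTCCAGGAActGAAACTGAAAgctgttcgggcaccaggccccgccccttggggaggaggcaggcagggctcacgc
Gbp2: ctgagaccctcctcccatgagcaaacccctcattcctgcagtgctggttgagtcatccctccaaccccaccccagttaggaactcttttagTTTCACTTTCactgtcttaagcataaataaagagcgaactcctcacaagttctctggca
The windows lie at chr3:142530186-142530335 (Gbp7), chr11:58199406-58199555 (Igtp), chr11:58214827-58214976 (Irgm2) and chr3:142620513-142620662 (Gbp2). The match to the interferon response element begins 53, 34, 64 and 59 bases before the start in the same order, and is present in Gbp2 as well as in the genes that fell. TTCNNNGAA matches appear in Gbp7 at 106 and 87 bases before the start, in Igtp at 45 and in Irgm2 at 75, and in none of the Gbp2 bases shown. The stretches around the matches in Igtp and Irgm2 are near-identical, so these are not separate examples. Gbp3, which fell too and is not shown, had 2 interferon response element matches and 0 to TTCNNNGAA in the 300 bases at chr3:142559794-142560093. Its other window, chr3:142560106-142560405, had 0 of both. Over promoter windows of 300 bases, 250 before to 50 after the start, the interferon response element was found in 3.70% of those of genes lower in Th17, 3.04% of those of genes higher, 3.23% of those of genes tested and 3.44% of all promoters in the table. Among interferon response genes it was in 10 of 25 windows of lower genes and 7 of 10 of the others, where a gene can have more than 1 start and window. For TTCNNNGAA the shares were 8.12% of lower, 6.21% of higher, 6.96% of tested and 8.30% of all, and 8 of 25 and 3 of 10 of the interferon response windows. AGGTGTGA, the element bound by T-bet, was in 1.001% of windows of higher genes, 0.798% of lower, 0.867% of tested and 1.28% of all. TGANTCA, bound by AP-1, was in 5.44%, 5.01%, 4.88% and 7.81% in the same order. A match is a sequence description and does not show a bound site.

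Among genes of naive and memory T cells, Tcf7 had 1 of the 12 largest gains by the naming rule, and Ccr7, S1pr1 and Id3 also rose. Tcf7 (ENSMUSG00000000782, chromosome 11, 52252371 to 52283014), which encodes TCF-1, a factor of naive and self-renewing T cells, was at 0.495, 0.0893 and 0.315 CPM in Th1 and 65.5, 77.2 and 77.3 CPM in Th17. It went from close to absent to readily detected in each Th17 library, 221-fold higher (log2 fold change 7.79 with SE 0.23, adjusted p = 6.94e-18). Its relative Lef1 was already present in Th1 and rose from 97.01 ± 4.42 CPM in Th1 to 222 ± 19.5 CPM in Th17 (log2 fold change 1.17 with SE 0.09, adjusted p = 2.09e-10). Ccr7, the receptor that leads T cells into lymph nodes, was at 9.57, 7.41 and 5.67 CPM in Th1 and 132, 107 and 89.2 CPM in Th17 (log2 fold change 3.95 with SE 0.17, adjusted p = 4.41e-10). S1pr1, the receptor for leaving them, was at 8.58, 10.7 and 9.38 CPM in Th1 and 117, 108 and 105 CPM in Th17 (log2 fold change 3.56 with SE 0.14, adjusted p = 1.25e-12). Id3, an inhibitor of E proteins, rose 8.67-fold from 1.56 ± 0.826 CPM in Th1 to 14.3 ± 1.95 CPM in Th17. In the other direction Foxp1, a factor of quiescence, was at 66.7 ± 6.07 CPM in Th1 and 16.6 ± 4.28 CPM in Th17 (log2 fold change -1.82 with SE 0.11, adjusted p = 8.46e-13), and the survival genes Il7r (-0.63 ± 0.06) and Bcl2 (-0.91 ± 0.15) were lower. Of the 14 members tested (of 16), 8 were higher and 4 lower, with a median of 0.54.

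Other chemokine receptors and integrins were also mostly higher, 16 of 26 tested (of 33) against 7 lower, with a median of 0.63. Ccr1 was at 8.65 ± 1.05 CPM in Th1 and 47.3 ± 4.27 CPM in Th17 (log2 fold change 2.42 with SE 0.13, adjusted p = 3.28e-14), Ccr8, a receptor of skin-homing and regulatory T cells, at 0.19 ± 0.208 CPM in Th1 and 6.74 ± 1.604 CPM in Th17, and Itga3, an integrin chain for laminin, at 32.5 ± 3.18 CPM in Th1 and 124 ± 9.18 CPM in Th17. Ccr4 (2.14 ± 0.31) and Cxcr4 (1.32 ± 0.22) were higher. Ccr6, the receptor that marks Th17 cells, had 0 counts in Th1 and only 6 in Th17, at least 5.37-fold higher. Without Th17 WT 1 the Ccr6 call was lost (adjusted p = 0.153). Ccr2, an inflammatory receptor, fell from 415 ± 41.97 CPM in Th1 to 195 ± 19.9 CPM in Th17 (log2 fold change -1.08 with SE 0.09, adjusted p = 2.22e-08).

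Surface receptors that tune activation were mostly higher in Th17 cells. Cd200, a ligand of an inhibitory receptor on myeloid cells, was at 1.07, 1.696 and 1.497 CPM in Th1 and 63.1, 70.9 and 61.8 CPM in Th17. The groups were far apart, 45.6-fold (log2 fold change 5.51 with SE 0.17, adjusted p = 1.63e-18). Btla, an inhibitory receptor, was at 13.8 ± 2.94 CPM in Th1 and 119.7 ± 11.7 CPM in Th17 (log2 fold change 3.12 with SE 0.13, adjusted p = 2.15e-12) and Lag3, which binds MHC class II, at 17.004 ± 2.27 CPM in Th1 and 60.1 ± 2.48 CPM in Th17 (log2 fold change 1.81 with SE 0.12, adjusted p = 6.82e-12). Entpd1, the ectoenzyme CD39, was lower, at 101 ± 1.18 CPM in Th1 and 49.7 ± 6.97 CPM in Th17 (-0.92 ± 0.09). Of 23 members tested (of 24), 13 were higher and 4 lower, with a median of 0.48. Among 30 cytokine receptor genes tested (of 31), 14 were higher and 11 lower, with a median of 0.17. Il1r2, the decoy receptor for IL-1, was at 14.5, 19.02 and 24.2 CPM in Th1 and 255, 228 and 244 CPM in Th17 (log2 fold change 3.66 with SE 0.15, adjusted p = 1.14e-09). Tnfrsf1b, a receptor for TNF, fell from 115 ± 3.74 CPM in Th1 to 56.4 ± 3.21 CPM in Th17 (-1.06 ± 0.08).

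Downstream of these receptors, 12 of 22 genes of STAT and SOCS signalling were higher and 4 lower, with a median of 0.32. Stat3, which transmits IL-6, IL-21 and IL-23, was at 205, 204 and 218 CPM in Th1 and 359, 342 and 348 CPM in Th17 (log2 fold change 0.75 with SE 0.06, adjusted p = 2.01e-10). Stat4, which transmits IL-12, was at 98.96 ± 1.17 CPM in Th1 and 124 ± 15.8 CPM in Th17 (log2 fold change 0.28 with SE 0.09, adjusted p = 0.00842). The Stat4 call was lost without Th17 WT 2 (adjusted p = 0.118) or both shallow libraries (0.391). The kinase gene Jak2 (1.07 ± 0.08) and Stat5a (1.06 ± 0.07) rose by a larger amount. The feedback inhibitors Socs1 (-0.98 ± 0.20) and Socs2 (-1.46 ± 0.25) were lower, while Socs3, the inhibitor of STAT3 signalling, was higher (0.36 ± 0.08). The Socs1 call was lost without all 3 shallow libraries (adjusted p = 0.0558). Without the 2 shallow WT libraries the count of lower members was 2. The labels name no TGF-beta among the Th17 culture additions. Of 19 genes of TGF-beta and activin signalling tested (of 21), 9 were higher and 4 lower, with a median of -0.01. Smad3, a transducer of that pathway, was at 19.4 ± 2.62 CPM in Th1 and 38.7 ± 8.84 CPM in Th17 (log2 fold change 1.15 with SE 0.13, adjusted p = 1.14e-07), and its co-repressors Skil (1.13 ± 0.07) and Ski (0.87 ± 0.08) rose. Inhba, encoding the activin A subunit, was at 0.0825, 0.179 and 0.0788 CPM in Th1 and 4.05, 4.97 and 5.94 CPM in Th17 (log2 fold change 5.15 with SE 0.47, adjusted p = 1.3e-09).

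Genes induced early after T cell receptor triggering were mostly higher in the Th17 cells. Tnfaip3, the NF-kB inhibitor A20, was at 103, 92.5 and 90.1 CPM in Th1 and 556, 586 and 503 CPM in Th17. It was 5.797-fold higher with no overlap (log2 fold change 2.54 with SE 0.07, adjusted p = 1.93e-19). The nuclear receptor genes Nr4a1 (4.07 ± 0.55 CPM in Th1 and 34.3 ± 9.15 CPM in Th17) and Nr4a2 (2.12 ± 0.348 CPM in Th1 and 23.6 ± 6.24 CPM in Th17) and the activation marker Cd69 (39.2 ± 3.56 CPM in Th1 and 100.05 ± 20.98 CPM in Th17) were also higher. Fos (-0.76 ± 0.23), Fosb (-1.04 ± 0.40), Dusp1 (-0.60 ± 0.15) and Ier3 (-0.54 ± 0.20) were lower. Without Th17 WT 1 none of these 4 passed (adjusted p of 0.0597 to 0.491), and without Th17 WT 2 only Dusp1 did. Of the 21 members, 13 were higher and 4 lower, with a median of 0.84. The 4 lower calls depended on single libraries, with 0 lower without Th17 WT 1, 1 without Th17 WT 2 and 2 without Th1 WT 2 or without the 2 shallow WT libraries.

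**Figure D3:**
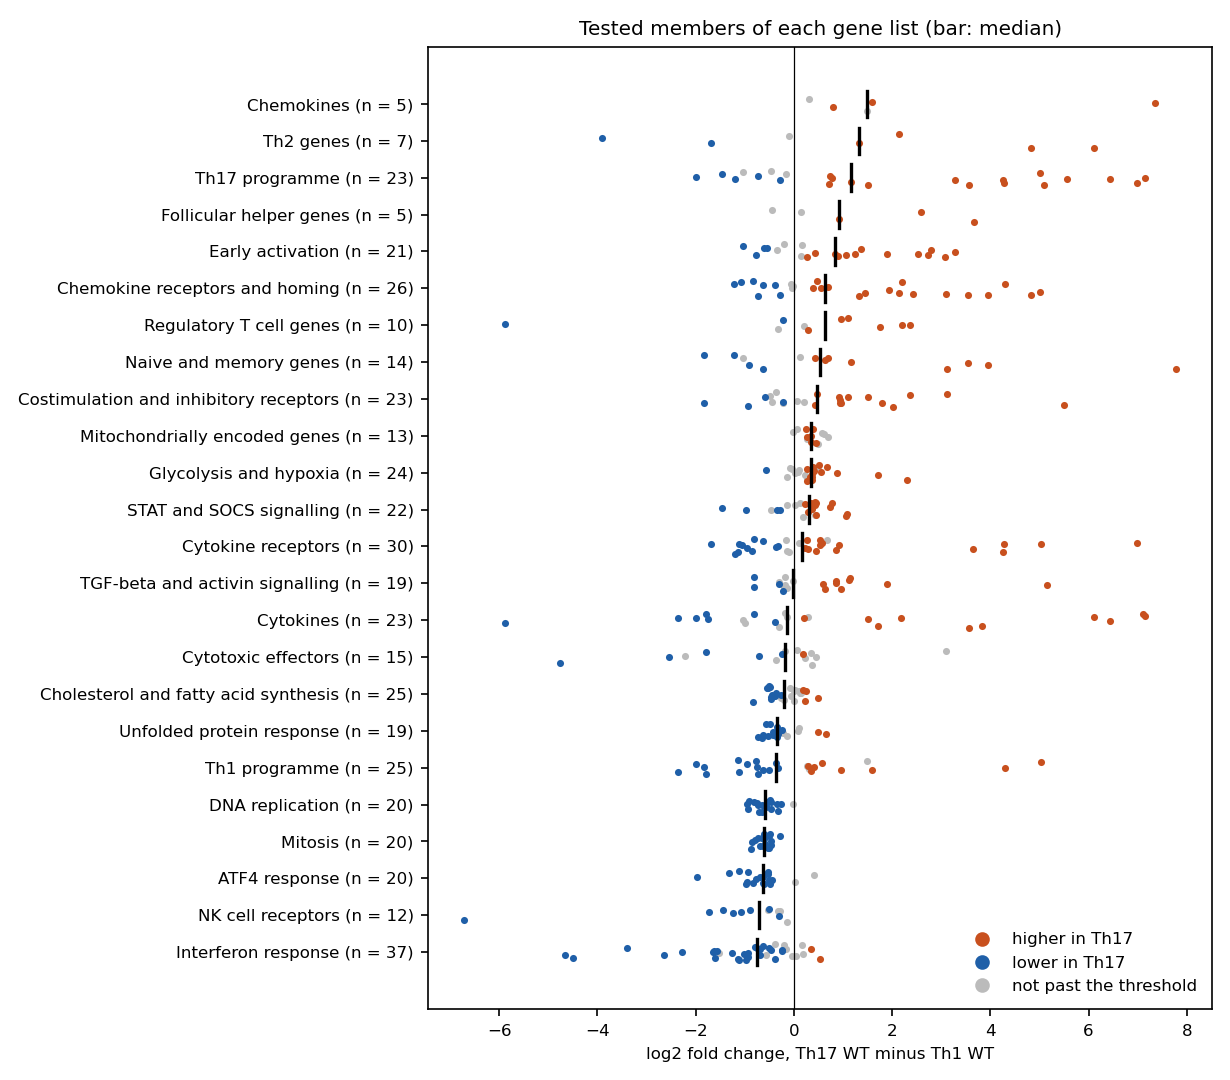
Log2 fold change of Th17 WT against Th1 WT (horizontal axis) for each tested member of the 24 gene lists, in orange for members higher in Th17, blue for lower and grey for those that did not pass, with the list's median as a bar. The members of the mitosis and DNA replication lists lie together to the left of 0, while lineage lists such as the Th17 and Th1 programmes spread to both sides. Points of genes with 0 counts in a group are fitted values and no measure of size, and setting them at their lower bounds moved no median.

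Cell cycle genes were lower in the Th17 cells, by less than 2-fold. Top2a, the topoisomerase of dividing cells, was at 1942, 2100.2 and 2024 CPM in Th1 and 1286, 1278 and 1369.6 CPM in Th17. The ranges did not overlap (log2 fold change -0.63 with SE 0.06, adjusted p = 6.77e-09). Ccna2, encoding cyclin A, was at 439, 498 and 486 CPM in Th1 and 247, 257 and 285 CPM in Th17 (log2 fold change -0.87 with SE 0.07, adjusted p = 5.9e-11), and the spindle motor gene Kif11 at 491 ± 24.7 CPM in Th1 and 271 ± 8.66 CPM in Th17. All 20 tested members of the mitosis list were lower, with a median of -0.60, and 19 of 20 DNA replication genes, with a median of -0.58. Mcm2, of the replicative helicase, was at 277, 278 and 266 CPM in Th1 and 151, 144 and 127 CPM in Th17 (log2 fold change -0.93 with SE 0.07, adjusted p = 1.16e-11). Rrm2, which makes deoxynucleotides, was at 434 ± 28.7 CPM in Th1 and 231 ± 3.38 CPM in Th17 (log2 fold change -0.91 with SE 0.06, adjusted p = 1e-11). Mcm6 alone of the replication list did not pass (log2 fold change -0.02 with SE 0.06, adjusted p = 0.877). Several replication-dependent histone genes, among the most abundant genes with at least a 2-fold difference, fell in parallel. Hist1h1d fell from 1716 ± 99.7 CPM in Th1 to 777 ± 54.3 CPM in Th17 (log2 fold change -1.14 with SE 0.08, adjusted p = 3.68e-10) and Hist1h1b from 932 ± 64.4 CPM in Th1 to 399 ± 43.5 CPM in Th17 (log2 fold change -1.21 with SE 0.09, adjusted p = 4.93e-10). Hist1h4d (-1.06 ± 0.07), Hist1h4f (-1.22 ± 0.13) and Hist1h2be (-1.09 ± 0.10) did the same. Hist1h2bq had 0 counts in Th17 WT but did not pass (adjusted p = 0.0562). Histone genes are near-identical copies whose messages mostly lack a poly-A tail, so poly-A based libraries measure them poorly.

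**Figure D4:**
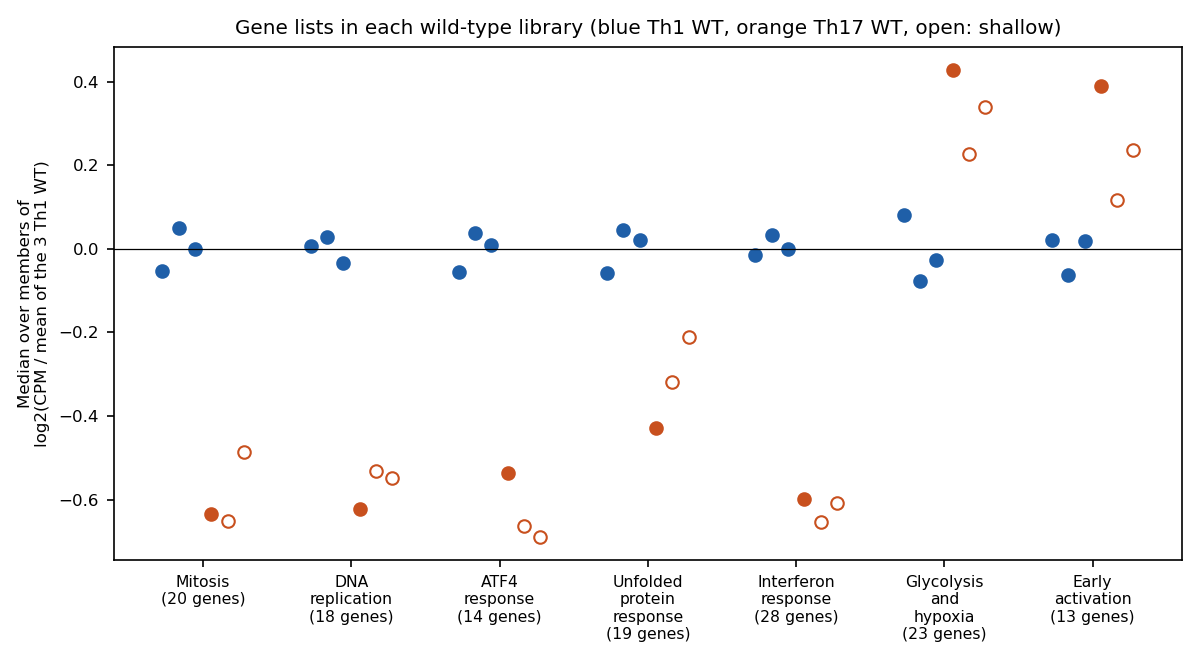
Median over list members of the log2 ratio of a library's CPM to the mean of the 3 Th1 WT libraries (vertical axis), for 7 lists and each wild-type library, over members with a mean of at least 20 CPM and a count in each library. Blue points are Th1 WT and orange points Th17 WT, open for the 2 shallow libraries. The 3 Th17 libraries lie below the Th1 libraries in the mitosis (-0.65 to -0.49), replication, ATF4, unfolded protein and interferon lists and above them in glycolysis (0.23 to 0.43) and early activation.

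Genes of amino acid supply and stress responses were lower as well. Slc7a5, the transporter for large neutral amino acids, was at 309, 319 and 327 CPM in Th1 and 160.5, 174 and 141 CPM in Th17. It was 1.98-fold lower (log2 fold change -0.98 with SE 0.08, adjusted p = 5.77e-11). Phgdh, the opening enzyme of serine synthesis, was at 218 ± 9.68 CPM in Th1 and 122 ± 11.3 CPM in Th17 (log2 fold change -0.82 with SE 0.07, adjusted p = 7.33e-10), and Asns, which makes asparagine, at 104 ± 4.22 CPM in Th1 and 60.4 ± 3.51 CPM in Th17 (log2 fold change -0.77 with SE 0.08, adjusted p = 7.43e-09). Of the 20 genes of the response to the stress factor ATF4, 17 were lower and none higher, with a median of -0.62. Of 19 genes of the unfolded protein response, which handles misfolded proteins of the endoplasmic reticulum, 13 were lower and 2 higher, with a median of -0.34. Xbp1, a factor of that response, was at 263, 252 and 242 CPM in Th1 and 154, 162 and 136 CPM in Th17 (log2 fold change -0.72 with SE 0.07, adjusted p = 3.15e-09). The 2 higher genes encode its sensors, Ern1 (0.67 ± 0.10) and Atf6 (0.49 ± 0.07).

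Glucose metabolism and lipid synthesis went in different directions. Slc2a3 (ENSMUSG00000003153, chromosome 6, 122727809 to 122801640), the glucose transporter GLUT3, was at 185, 159.6 and 135 CPM in Th1 and 913, 721 and 715 CPM in Th17. It was 4.95-fold higher (log2 fold change 2.31 with SE 0.22, adjusted p = 3.43e-05), whereas Slc2a1, the transporter GLUT1, did not pass (log2 fold change -0.13 with SE 0.08, adjusted p = 0.178). The hexokinases Hk1 (186 ± 14.2 CPM in Th1 and 297 ± 6.15 CPM in Th17) and Hk2 (190.3 ± 23.7 CPM in Th1 and 352 ± 6.44 CPM in Th17) rose, and the lactate transporter Slc16a1 fell (-0.58 ± 0.08). Of 24 genes of glycolysis and hypoxia, 14 were higher and 1 lower, with a median of 0.35, and without Th17 WT 1 it was 9 higher. Of 25 genes of cholesterol and fatty acid synthesis, 11 were lower and 4 higher, with a median of -0.20. Fasn, the fatty acid synthase, was at 725, 757 and 791 CPM in Th1 and 505, 498 and 552 CPM in Th17 (log2 fold change -0.55 with SE 0.06, adjusted p = 2.11e-08). Cyp51, an enzyme of sterol synthesis, was lower too (-0.53 ± 0.06). All 37 mitochondrially encoded genes together took 14.2% to 14.8% of the counts in Th1 and 16.9% to 18.6% in Th17. Of the 13 in the gene list, all tested, 6 were higher and none lower, with a median of 0.36. An example was mt-Co1 at 7328 ± 199.8 CPM in Th1 and 9657 ± 726 CPM in Th17 (log2 fold change 0.40 with SE 0.07, adjusted p = 1.83e-05). Without the 2 shallow WT libraries only 1 was higher. In the main fit 46.2% of these genes passed, close to the 46.6% of all genes tested.

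Outside the lists, several genes were found in Th17 and close to absent from Th1. Pcsk1 (ENSMUSG00000021587, chromosome 13, 75089826 to 75134861), a protease that cleaves prohormones, had 0 counts in Th1 and was at 14.6, 18.5 and 11.9 CPM in Th17, at least 181-fold higher. Ntrk3, a neurotrophin receptor gene, was likewise at 0 counts in Th1 and at 7.43, 17.2 and 8.32 CPM in Th17, at least 109-fold higher. Gucy1a1, a subunit of the receptor for nitric oxide, had 2 counts in Th1 and 371 in Th17, a ratio of 498-fold (95% counting interval 137 to 4125). The ratio was 242-fold (95% counting interval 65.9 to 2009) for Ccn4, a secreted matrix protein of the Wnt pathway, and 172-fold (95% counting interval 29.7 to 6888) for Pdzk1ip1. Penk, the precursor of enkephalin, was at 0.165, 0.268 and 0.236 CPM in Th1 and 28.8, 27.99 and 30.9 CPM in Th17 (log2 fold change 6.93 with SE 0.31, adjusted p = 7.96e-16). Lum, a proteoglycan of connective tissue, was at 0.221 ± 0.037 CPM in Th1 and 30.4 ± 4.66 CPM in Th17, with the related stromal marker Dcn also higher (0.0525 ± 0.091 CPM in Th1 and 1.02 ± 0.15 CPM in Th17, from 2 counts in Th1 and 13 in Th17, adjusted p = 0.000483). Of the 7 stromal markers 2 were tested and Pecam1 did not pass, and the other 5 had at most 5 counts in any library. Their part in the Lum result was not tested. Lrrk2, a kinase known from inherited Parkinson's disease, was at 0.338 ± 0.25 CPM in Th1 and 41.7 ± 1.34 CPM in Th17. Ebf1, a factor that specifies B cells, was at 0.165, 0.179 and 0 CPM in Th1 and 17.9, 9.93 and 8.32 CPM in Th17 (log2 fold change 6.87 with SE 0.41, adjusted p = 5.29e-13), while the B cell genes Cd79a and Pax5 had at most 3 counts in any WT library and Ms4a1 had none. Of the 8 B cell markers 1 passed, with a summed level of 7.5 to 8.08 CPM in Th1 and 20.2 to 28.7 CPM in Th17. Selenbp1 was at 16.3, 3.16 and 3.57 CPM in Th17 and 2 counts in Th1, and the call was lost without Th17 WT 1 (adjusted p = 0.225).

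The largest falls not yet described were of genes with varied roles. Ifi214, a relative of Ifi204, was at 50.3, 57.2 and 53.3 CPM in Th1 and 1.06, 4.97 and 2.38 CPM in Th17 (log2 fold change -4.87 with SE 0.23, adjusted p = 7.99e-14). Ptger3, a receptor for prostaglandin E2, was at 16.8 ± 0.755 CPM in Th1 and 0.74 ± 0.394 CPM in Th17 (log2 fold change -4.78 with SE 0.32, adjusted p = 2.45e-12), and Emilin2, an extracellular matrix glycoprotein, at 74.5 ± 8.85 CPM in Th1 and 2.82 ± 2.096 CPM in Th17 (log2 fold change -4.34 with SE 0.33, adjusted p = 2.45e-06). Enah, a regulator of actin filaments, fell from 31.9 ± 1.96 CPM in Th1 to 0.998 ± 0.876 CPM in Th17, and Rab27b, a GTPase of vesicle release, from 7.54 ± 0.506 CPM in Th1 to 0.557 ± 0.598 CPM in Th17. Ncam2, an adhesion molecule of neurons, fell from 11.3 ± 2.43 CPM in Th1 to 0.161 ± 0.279 CPM in Th17, and Onecut2, a homeobox factor, from 15.6 ± 3.85 CPM in Th1 to 0.612 ± 0.686 CPM in Th17. Pld4, an exonuclease of the endosome, had 189 counts in Th1 and 3 in Th17, a ratio of 23.5-fold (95% counting interval 7.91 to 115). With a smaller change, Ctsd, the lysosomal protease cathepsin D, was at 909.6 ± 92.6 CPM in Th1 and 462 ± 81.9 CPM in Th17 and was among the most abundant genes that fell at least 2-fold (log2 fold change -1.01 with SE 0.13, adjusted p = 4.89e-05).

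Whether the difference between Th17 and Th1 was the same in cells without NKG2D was tested as the interaction, the WT difference minus the KO difference. It passed for 76 genes (0.614%), 61 positive (0.493%) and 15 negative (0.121%). In the KO libraries alone, 6564 genes (53%) passed between Th17 and Th1. WT and KO cells differed in the NKG2D gate and the Thy1 allele as well as in genotype, which cannot be told apart. WT and KO libraries may share a culture, which the fit did not model. Of the 12 tested NK receptor genes, 4 passed. Klrd1 fell little between Th1 and Th17 in WT and more in KO, where it was at 133, 118 and 121 CPM in Th1 and 28.9, 32.3 and 30.4 CPM in Th17. Its log2 fold change was -0.29 ± 0.08 in WT and -2.05 ± 0.09 in KO, an interaction of 1.76 ± 0.12, adjusted p = 2.7e-10. In KO, Klrc1 was at 376, 368 and 428 CPM in Th1 and 53.4, 45.5 and 73.5 CPM in Th17, with an interaction of 1.43 ± 0.15, adjusted p = 0.000161. For Klrc2 it was 1.57 ± 0.17, adjusted p = 3.39e-05 and for Klri2 2.26 ± 0.26, adjusted p = 1.06e-05. These calls were kept in all 15 alternatives in which the interaction was fitted. Fasl fell more in KO (-3.15 ± 0.19) than in WT (-1.79 ± 0.17), an interaction of 1.36 ± 0.28, adjusted p = 0.0405, which was lost when any 1 Th1 WT library or Th17 WT 1 was left out (adjusted p of 0.0681 to 0.423).

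**Figure D5:**
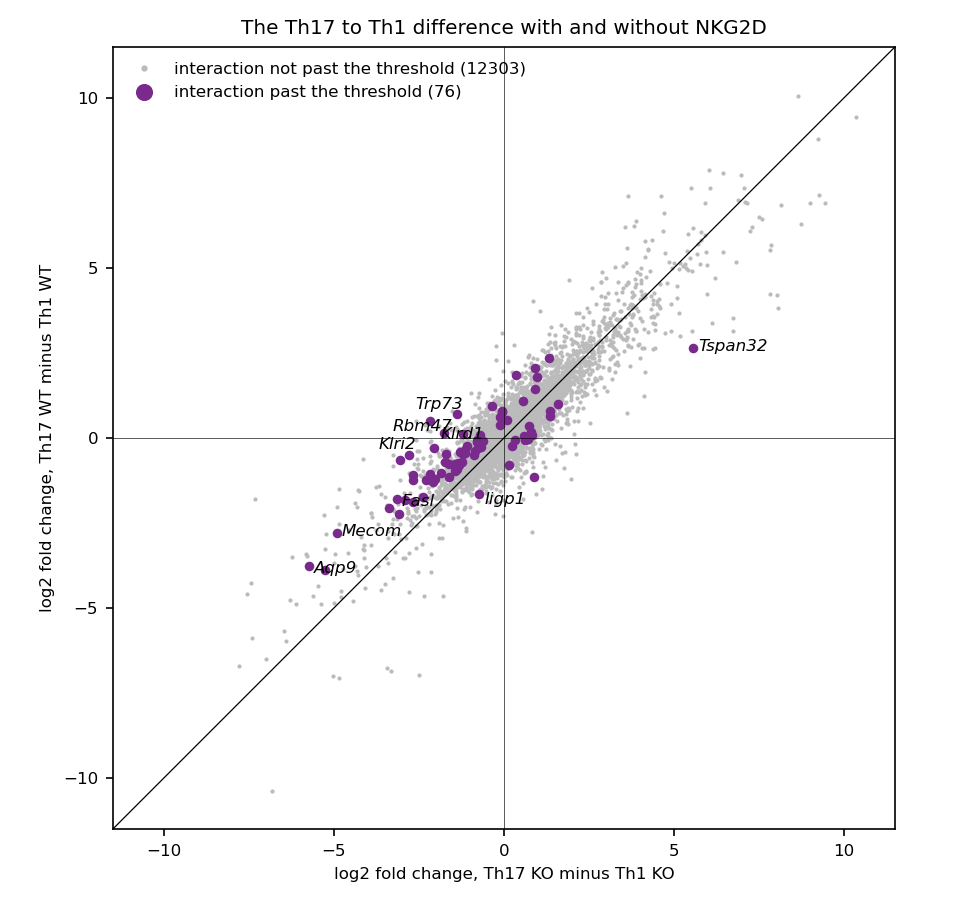
Log2 fold change of Th17 against Th1 in WT (vertical axis) by that in KO (horizontal axis) for the 12379 genes, with a line where the 2 are equal. The 76 genes with an interaction past the threshold are in purple, among them Klrd1 and Klri2, which lie above the line, and Tspan32, below it.

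Other genes with a positive interaction were named by its size or from the groups above. Mecom, a zinc finger factor of blood stem cells, fell from 21.7 ± 2.69 CPM in Th1 to 3.27 ± 0.258 CPM in Th17 in WT, and was at 17.9, 18.4 and 16.8 CPM in Th1 KO and 0.889, 0 and 0.288 CPM in Th17 KO, an interaction of 2.12 ± 0.43, adjusted p = 0.0127. Without Th17 WT 1 the Mecom interaction was lost (adjusted p = 0.134). Aqp9, a channel for glycerol and water, fell from 53.1 ± 4.51 CPM in Th1 to 3.84 ± 1.04 CPM in Th17 in WT and more in KO, an interaction of 1.95 ± 0.33, adjusted p = 0.00219, lost without Th17 WT 1 (adjusted p = 0.201). Trp73 of the p53 family had an interaction of 2.09 ± 0.36, adjusted p = 0.00261, also lost without that library (adjusted p = 0.136), and Rbm47, an RNA-binding protein, 1.91 ± 0.36, adjusted p = 0.00735, lost without all 3 shallow libraries (adjusted p = 0.0533). Ifngr1 fell further in KO (-1.61 ± 0.07) than in WT (-1.14 ± 0.07), an interaction of 0.47 ± 0.10, adjusted p = 0.019, which was lost without Th1 WT 3 or Th17 WT 1 (adjusted p of 0.0622 and 0.0547).

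Fewer genes fell further or rose less in WT than in KO. Tspan32 (ENSMUSG00000000244, chromosome 7, 143005046 to 143019644), a tetraspanin of blood cells, was at 7.57 ± 0.561 CPM in Th1 and 48.8 ± 2.35 CPM in Th17 in WT and at 0.323, 0.474 and 0.276 CPM in Th1 KO and 16.98, 26.3 and 17.5 CPM in Th17 KO. It rose less in WT (2.66 ± 0.13) than in KO (5.56 ± 0.24), an interaction of -2.902 ± 0.33, adjusted p = 1.06e-05. Cd274, which encodes the inhibitory ligand PD-L1, was at 64.7, 61.3 and 58.9 CPM in Th1 WT and 71.8, 58.7 and 53.5 CPM in Th17 WT, with no call, and at 38.5, 39.8 and 40.8 CPM in Th1 KO and 76.2, 55.1 and 69.02 CPM in Th17 KO. The Cd274 interaction was -0.74 ± 0.13, adjusted p = 0.00252. Cysltr2, a leukotriene receptor, rose in WT (0.65 ± 0.08) and more in KO (1.36 ± 0.07), with an interaction of -0.71 ± 0.10, adjusted p = 0.000384. Iigp1 (-0.92 ± 0.19, adjusted p = 0.0242) was lost without Th1 WT 2 or Th17 WT 1 (adjusted p of 0.0511 and 0.121), Tcf4 (-0.94 ± 0.21, adjusted p = 0.0289) without Th1 WT 1 or 2 or Th17 WT 1 or 2 (0.0563 to 0.172) and Ppp2r3c (-0.73 ± 0.15, adjusted p = 0.0163) without Th17 WT 1 (0.0684). For the lineage genes the interaction did not pass, at 1.45 ± 0.31, adjusted p = 0.114 for Ifng, 1.53 ± 0.38, adjusted p = 0.0697 for Il10, 1.53 ± 0.40, adjusted p = 0.206 for Gzmb and 0.11 ± 0.43, adjusted p = 0.996 for Il23r, which does not show that the difference was alike in WT and KO.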

How the data were processed

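RNA was sequenced from 12 libraries of cultured mouse CD4 T cells in 4 groups of 3. Per the labels' protocols, libraries were made with SMART-Seq v4 from poly-A RNA, from which 150 pg of cDNA entered Nextera XT, and were read as paired 75 nt reads on a NextSeq 500. The authors deposited raw counts per Ensembl gene for each library. The submitters' processing notes name TopHat2, Bowtie2, featureCounts and the builds GRCm38 and mm10. For versions, strand and multimapping settings and the annotation release, nothing is given in the sources used here. As the kit does not mark strand, antisense and overlapping genes cannot be told apart.

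Gene names came from GENCODE vM21 (GRCm38), which matched 37693 of 39179 IDs (96.2%). The ID that took 18.3% to 51.0% of the 3 shallow libraries, Th17 WT 2, Th17 WT 3 and Th17 KO 2, was removed. The counts were fitted with edgeR 4.0.16 in R 4.3.3 (TMM, filterByExpr, robust quasi-likelihood F test) in 1 model of all 4 groups, with Benjamini-Hochberg adjustment over 12379 genes and a threshold of 0.05. The scripts were tested on simulated data. CPM are counts scaled by the TMM-adjusted library size, log2 fold changes are Th17 minus Th1 and SE is the size of the log2 fold change over the square root of F. Genes with 0 counts in a group are given as a lower bound against 3 counts over the group, and those with 1 to 3 counts as a ratio with a 95% counting interval.

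The members and lists were chosen with earlier results of these data known. A rule named 129 genes: 8 lineage and control genes, the 12 largest changes each way (no overlap, and a mean of 5 CPM or more in the higher group), up to 4 called members per list, the 10 most abundant genes called with a 2-fold difference and 6 interaction genes each way, with predicted names left out. Other list members named, and the promoters shown, were chosen after seeing their values. The alternatives tried were DESeq2 1.42.0, limma-voom (limma 3.58.1), RLE factors, no filter, the ID kept, only the 6 WT libraries, a term for shallow libraries, thinning and leaving out libraries. Columns of other samples numbered 0. Results for some genes of the rule and lists are not reported here.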

Additional observations from a re-analysis of the deposited data

Results flagged for a closer look

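For 18 named genes the Th17 to Th1 difference in WT differed from that in KO by the test of the interaction in edgeR's quasi-likelihood fit. The WT difference was the more positive for Klri2 (2.26 on the log2 scale), Mecom (2.12), Trp73 (2.09), Aqp9 (1.95), Rbm47 (1.91), Klrd1 (1.76), Klrc2 (1.57), Klrc1 (1.43), Fasl (1.36), Lag3 (0.82), Ifngr1 (0.47) and Slc7a5 (0.45). It was the more negative for Tspan32 (-2.902), Tcf4 (-0.94), Iigp1 (-0.92), Cd274 (-0.74), Ppp2r3c (-0.73) and Cysltr2 (-0.71). The calls of Klri2, Klrd1, Klrc1, Klrc2 and Cysltr2 passed in all 15 alternatives run. Those of Lag3 (adjusted p = 0.033) and Slc7a5 (adjusted p = 0.0467) passed in 7 of 15, and Lag3 did not pass when any 1 Th17 WT library was left out (adjusted p of 0.0549 to 0.0693).

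The removed ID, for which the annotation used gives no name, took 18.3% of the counts of Th17 WT 2 and 48.1% of those of Th17 WT 3, against at most 0.00831% in the libraries that were not shallow.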

How the results depend on the processing

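No paired analysis was possible because the labels carry no replicate numbers, only a serial number that no other sample shares. With every library thinned to the smallest, 1331 genes were higher and 1140 lower in Th17 WT and 24 passed the interaction, where fewer counts were tested. Without a filter on low counts 213 genes passed the interaction, and without all 3 shallow libraries 50 did. Leaving out 1 WT library at a time gave 2020 to 2865 higher genes, 2182 to 2796 lower genes and 48 to 69 interaction genes. DESeq2 called 2426 higher, 2316 lower and 81 interaction genes.

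The direction in WT reversed for 4 named genes, none of them called. Cd274 was at -0.00892 thinned and -0.12 without Th17 WT 1 (-0.12 to 0.15 leaving out 1 library at a time), but passed with the shallow libraries as a term (0.23, adjusted p = 0.0339). Hcst was at 0.16 thinned. Ppp2r3c was at 0.10 thinned, 0.0194 without Th17 WT 2 (-0.10 to 0.0194 leaving out 1 library at a time), 0.00771 without all 3 shallow libraries and 0.00606 without the 2 shallow WT libraries. Rbm47 was at -0.0523 with the shallow libraries as a term, -0.0654 without all 3 of them and -0.0671 without the 2 from WT. The cause was not tested. Of the 129 named genes, 12 lost their WT call in at least 1 alternative, among them Thy1 in 6, Trp73 in 9, and Klri2 and Serpinb9 without Th17 WT 1 (adjusted p of 0.113 and 0.0851). Depth limits the low genes most, since 3 counts in Th17 WT 3 are 3.57 CPM.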

Other observations

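Of the dendritic cell and macrophage markers, those of the MHC class II pathway were higher in the Th17 WT libraries, whereas Psmb8 (-0.64 ± 0.07) and Tap1 (-0.38 ± 0.07), of class I processing, were lower. Cd74, the invariant chain that guides MHC class II molecules, was at 2.804, 2.59 and 1.497 CPM in Th1 and 42.9, 41.5 and 36.9 CPM in Th17 (log2 fold change 4.19 with SE 0.16, adjusted p = 2.07e-17). H2-Ab1, a class II beta chain, was at 15.96 ± 1.55 CPM in Th1 and 36.02 ± 10.6 CPM in Th17 (log2 fold change 1.35 with SE 0.21, adjusted p = 0.000245), and Ctss, a protease that trims the invariant chain, at 20.1 ± 0.0894 CPM in Th1 and 43.97 ± 1.45 CPM in Th17 (log2 fold change 1.13 with SE 0.11, adjusted p = 2.18e-09). The class II genes H2-Aa and H2-Eb1, which passed too, stayed low at 1.405 and 1.38 CPM in Th17. Kit, the receptor for stem cell factor, was at 8.496, 7.14 and 6.698 CPM in Th1 and 17.1, 22.1 and 21.4 CPM in Th17 (log2 fold change 1.35 with SE 0.18, adjusted p = 7.59e-07). Of the other NK and innate lymphoid cell markers, Klre1 was at 3.86 ± 0.154 CPM in Th1 and 3.76 ± 1.93 CPM in Th17 and did not pass (adjusted p = 0.461). Fcer1g had at most 4 counts and Tyrobp at most 1 in any library, and Ncr1 and Eomes had 0 counts in all 6 libraries. Whether these transcripts came from the T cells was not tested.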
